A study of Canis lupus familiaris with 17 samples.

Results

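CD4-expressing monocytes were taken here as blood cells that carried at least 20 UMIs of LYZ, at least 5 of DLA-DRA and at least 2 of CD4, with no UMI of IL18. A UMI is a molecular tag that marks 1 captured transcript. LYZ is the lysozyme of myeloid cells, DLA-DRA is the α chain of the dog MHC class II molecule, and CD4 is the surface coreceptor best known from helper T cells. Cells with any UMI of CD3E (T cells), MS4A1 (B cells), FLT3 (dendritic cells) or CAMP (neutrophil granules) were left out, as were cells with 6 or more UMIs over the interferon-induced genes IFI44, IFI44L, ISG15, XAF1, IFIT1 and RSAD2. The rule found 560 such cells among 84345 cells kept from 17 dogs, with between 7 and 93 cells in a dog and a median of 29. The reference was the 5877 monocytes that met the same limits with no CD4 UMI, called CD4=0 monocytes below. These 14 genes chose the cells, and no difference in them between kinds of monocyte is a result.

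The study profiled blood leukocytes, separated on Ficoll, of 7 healthy dogs and of 10 dogs with osteosarcoma (OS) that had received no treatment. All dogs were adult, and ages spread wider among the dogs with OS than among the middle-aged healthy dogs. All were client-owned dogs of labelled genotype Wt, and each dog gave 1 droplet-based single-cell library. A dog was the replicate in every comparison below. Cells were kept when they had 200 to 4500 genes, 500 to 20000 UMIs and less than 10% of UMIs from mitochondrial genes, which left 3313 to 7070 cells in a healthy dog and 1239 to 6217 in a dog with OS. The libraries held 27811378 to 46295707 UMIs in healthy dogs and 7740230 to 56510134 in dogs with OS.

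Monocytes circulate in blood, enter tissues and can become macrophages or dendritic cells. In dogs, CD4 is carried by neutrophils and by a part of the monocytes as well as by helper T cells, which differs from mice. Monocytic myeloid-derived suppressor cells (M-MDSCs) are monocytic cells described in cancer that can restrain T cells. The study's short list for them in dogs includes IL18, IL1B, LTF and S100A12. In its M-MDSC cluster the study reported higher CD4, S100A12 and IL18 and lower ribosomal and MHC class II transcripts than in other monocytes.

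The name under which these cells were proposed, CD4-expressing monocytes without M-MDSC genes, did not hold in the data. Of the 10 genes in the study's short list for M-MDSCs, only IL18 was used by the rule. The limits on CAMP and DLA-DRA may also leave out M-MDSCs, because the study reports CAMP in MDSCs and lower DLA-DRA in its M-MDSC cluster. Several other transcripts of that short list were present in most of the cells, and others in a smaller part of them. S100A12, a calcium-binding alarmin, had at least 1 UMI in 93.2% of the CD4-expressing monocytes and in 33.4% of the CD4=0 monocytes. LTF, the iron-binding granule protein lactoferrin, had a UMI in 89.6% and 20.8% of the same cells. The other members were less frequent in the CD4-expressing monocytes. MEFV was at 70.7% (50.2% in CD4=0 monocytes), KCNJ2 at 56.1% (40.1%) and IL1B at 50.7% (29.6%). CPXM2 was at 46.25% (19.6%), CSF3R at 37.1% (24.2%) and IL31RA at 36.1% (34.7%). STEAP4 was at 18.2%, also above its share in CD4=0 monocytes. In monocytes with at least 2 CD4 UMIs and a UMI of IL18, of which there were 545, the shares were 93.9% for S100A12 and 88.8% for LTF. The cells are therefore called by their rule, CD4-expressing monocytes, and not by the absence of a signature.

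Of 10 measured genes of a monocyte identity list other than LYZ, 7 had a UMI in at least 50% of the cells. CSF1R, the receptor for monocyte growth factor, had a UMI in 80.5% of the cells and VCAN, a proteoglycan of blood monocytes, in 99.8%. The other 3 were CD68 at 30.7% (30.7% in CD4=0 monocytes), CD163 at 29.6% (53.5%) and FCN1, at 0 UMIs in both and so not informative here. Lists of other lineages were read whole. All 12 T-cell genes, all 8 cytotoxic genes and all 5 erythroid genes had a UMI in less than 5% of the cells. Of 8 B-cell genes, 5 were under 5%, such as PAX5 at 0.714%, while CD79A and BANK1 were at 100% and 95.2%. CD79A and BANK1 were also frequent in CD4=0 monocytes, at 99.9% and 92.5%, and CD79A was in 99.3% of CD8A-positive cells, so it marked no lineage in these files. Of 9 dendritic genes, 6 were under 5% and the most frequent was TCF4 at 32.5% (55.0% in CD4=0 monocytes). Of 7 platelet genes, 6 were under 5%, and PPBP was at 11.1% (10.8% in CD4=0 monocytes). Of 7 eosinophil and basophil genes, 4 were under 5%, and PADI3 was at 95.5% (78.0% in CD4=0 monocytes).

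Several genes of a neutrophil list were frequent in both kinds of monocyte. Of 11, 8 had a UMI in 50% or more of the CD4-expressing and 5 in 50% or more of the CD4=0 monocytes. SERPINA1, a protease inhibitor, was at 99.5% and 98.5%, S100A8 at 99.1% and 99.5% and ALDH1A2 at 50.9% and 35.7%. CXCR2, a chemokine receptor of neutrophils, was at 0.893% and 0.153%. Of the 8 genes listed for PMN-MDSCs, the neutrophil-like MDSCs, 6 were under 5%, from 0.179% for CD177 and MMP8 to 0.714% for MMP9 and PGLYRP1. The other 2 were LTF at 89.6% and FADS1 at 17.9%.

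CD4 UMIs were few in each cell. The median was 4 and the highest 26, with 150 cells holding exactly 2 and 107 holding 3. At counts this low, some CD4=0 monocytes may carry CD4 transcripts that were not captured. Just outside the limit, 367 monocytes with no IL18 UMI held 1 CD4 UMI. Free RNA in the droplets could give such low counts, so CD4 was also read in B cells, which should lack it. Of 2101 B cells, defined by at least 2 UMIs of MS4A1, fewer than 20 of LYZ and none of CD3E, 0.19% had 2 or more CD4 UMIs and 0.904% had any, at a median of 5030 UMIs. Of the 6804 monocytes with no IL18 UMI, 8.23% had 2 or more and 13.6% had any, at a median of 11554 UMIs. Droplets with a UMI of CD3E were thus not part of this background. In single dogs the B-cell share with 2 or more lay between 0 and 1.79%. Of 3621 cells with at least 2 UMIs of CD8A, a UMI of CD3E, fewer than 20 of LYZ and none of MS4A1, 1.85% had 2 or more CD4 UMIs at a median of 5600 UMIs. In single dogs this share lay between 0 and 6.38%, the highest in OS dog 7, where it was above the monocyte share of 5.83%. Whether those CD4 UMIs were the cells' own was not tested.

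The CD4-expressing monocytes were smaller in RNA than their reference and had fewer mitochondrial reads. Their median total was 8114 UMIs against 11970 in CD4=0 monocytes, and it was lower in 17 of 17 dogs. The median mitochondrial share was 1.07% against 2.59% and was also lower in 17 of 17 dogs. Droplets marked as doublets made up 3.57% of the CD4-expressing and 1.84% of the CD4=0 monocytes. No barcode sequence was shared between libraries among the CD4-expressing cells, and 22 of the 560 carried a sequence that also stood on a cell of another kind in another library. The difference in total UMIs was removed from the gene comparisons by drawing CD4=0 cells of matching total within each dog.

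The first question was whether dogs with OS carried more of these cells. CD4-expressing monocytes made up 6.4 to 16.8% of the monocytes with no IL18 UMI in healthy dogs, with a median of 8.59%, and 4.97 to 20% in dogs with OS, with a median of 8.15%. The highest values were from few cells, 17 of 101 monocytes in healthy dog 7 and 20 of 100 in OS dog 3. The ranges overlapped almost whole, with means of 10.2% ± 3.54 (SD, n = 7) and 9.01% ± 4.28 (SD, n = 10). By a two-sided exact rank-sum test of Wilcoxon, p was 0.417 (adjusted p = 0.417 over 3 such tests). As a share of all kept cells they made up 0.357, 0.464 and 1.14% (lowest, median, highest) in healthy dogs and 0.171, 0.671 and 1.69% in dogs with OS. The means of this share were 0.565% ± 0.272 (SD, n = 7) and 0.804% ± 0.522 (SD, n = 10), for which the same exact test returned p = 0.417 (adjusted p = 0.417). In 7 of the 10 dogs with OS this share of kept cells was higher than in the median healthy dog. For the share of monocytes the count was 5 of 10. The study, which grouped cells by clusters, reported a larger share of CD4-positive monocytes among leukocytes in both dog groups. It reported no significant difference between the groups in that share.

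CD4 itself was also read over all monocytes with no IL18 UMI, whatever their CD4 count, so that its level there was not set by the limit of 2. It was 29.0 to 88.5 counts per 1000000 UMIs (CPM) in healthy dogs and 23.1 to 86.6 CPM in dogs with OS. The medians were 42.9 and 39.4 CPM and the means 54.2 ± 22.5 (SD, n = 7) and 42.7 ± 18.8 (SD, n = 10). The rank-sum test, exact and two-sided as before, returned p = 0.315 (adjusted p = 0.417). In 4 of the 10 dogs with OS the level was above the healthy median. The spread between dogs of a group was larger than the gap between the groups in these 3 measures. With all monocytes thinned to 3000 UMIs, the share with any CD4 UMI ran from 3.81 to 22.7% over the 17 dogs, with a median of 8.18%.

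**Figure D1:**
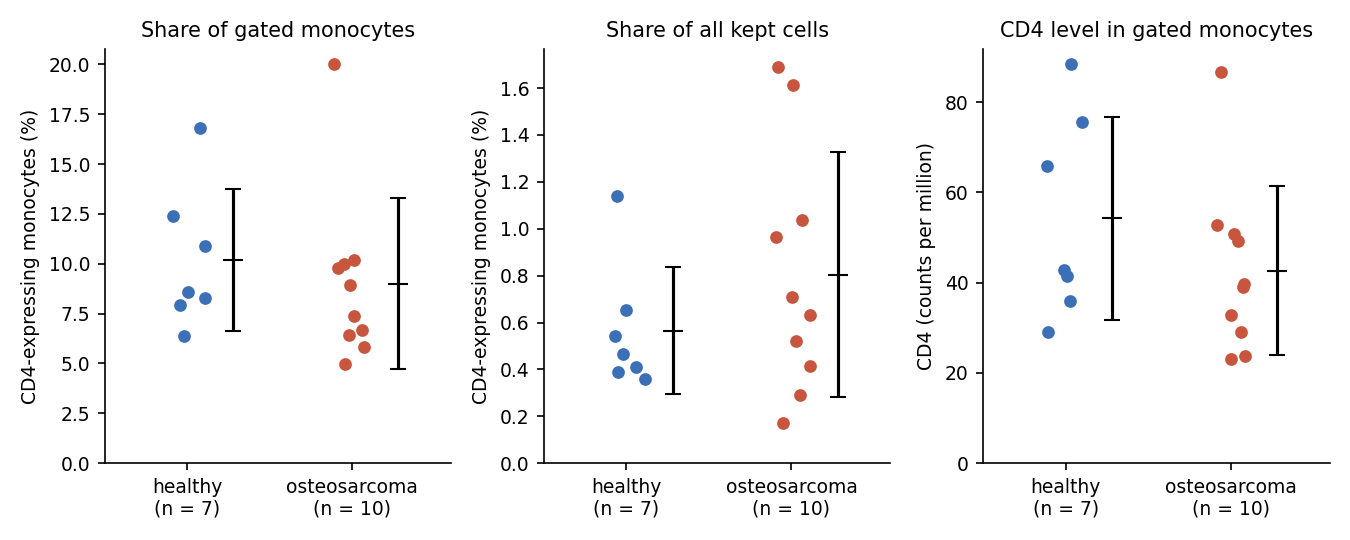
CD4-expressing monocytes as a percentage of monocytes with no IL18 UMI (left) and of all kept cells (middle), and the CD4 level in those monocytes in CPM (right), by dog group. Each point is 1 dog and the bars show the mean ± SD. The healthy and OS points overlap in all 3 panels, with group means of 10.2 and 9.01% on the left.

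The main question was what else the monocytes with CD4 carried. UMIs were summed per dog over CD4-expressing monocytes and over CD4=0 monocytes matched for total UMIs, in the 10 dogs with at least 25 CD4-expressing cells (healthy dogs 1, 3, 4 and 6 and OS dogs 5 to 10). Each sum held 23 to 93 cells after matching. A gene was called at an adjusted p under 0.01 by edgeR's quasi-likelihood test with the dog in the model, together with a change of more than 0.58 on the log2 scale. Of 9817 genes tested, 229 were higher (2.33%) and 319 lower (3.25%) in CD4-expressing monocytes. The median log2 fold change over all genes tested was -0.01. DESeq2 called 149 higher and 198 lower, the 4 healthy dogs alone gave 52 and 99, and cells not matched for total UMIs gave 374 and 870. Of 70 called genes that were followed over the settings, 14 lost their call in at least 40% of the other settings that gave them an adjusted p. These were BACH2, BATF3, CCL3, CCL5, CD163, CD2, CSF3R, CXCL10, NOD2, OAS1, PTGS2, RETN, SAA1 and UQCRFS1.

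S100A12 and LTF rose together with CD4. S100A12 was 88.9 to 942 CPM in CD4=0 monocytes, with a median of 487, and 922 to 2494 CPM in CD4-expressing monocytes, with a median of 2009.9. The 2 ranges met only where the lowest CD4-expressing value, in healthy dog 6, fell just under the highest CD4=0 value. The log2 fold change was 2.07 ± 0.09 (SE), with an adjusted p of 3.21e-63 by edgeR, and S100A12 was higher in 10 of 10 dogs. LTF was 30.9, 255 and 469 CPM (lowest, median, highest) in CD4=0 monocytes and 543, 1059 and 1563 CPM in CD4-expressing monocytes. The values did not overlap, with a log2 fold change of 2.23 ± 0.10 (SE) and an adjusted p of 6.65e-64 by edgeR.

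Of the 9 tested members of the study's M-MDSC signature other than IL18, 8 were called higher and 0 lower, with a median log2 fold change of 1.28. In the healthy dogs alone 3 of the 9 were called. This list came from the study's own work on these dogs, and its count is no independent evidence of direction. IL1B, the inflammatory cytokine interleukin 1β, ranged from 0 to 1788 CPM in CD4=0 monocytes (median 84.7) and from 27.3 to 2821 CPM in CD4-expressing monocytes (median 364). Dogs differed far more from each other in IL1B than the gates did, but within a dog it was higher in 10 of 10, with a log2 fold change of 1.41 ± 0.11 (SE). STEAP4, a metalloreductase, rose by 1.57, CPXM2, a carboxypeptidase-like protein, by 1.28, and CSF3R, the receptor for granulocyte colony-stimulating factor, by 0.87 on the log2 scale. The call of CSF3R was lost in 8 of 15 other settings, among them DESeq2 and another draw of cells, with values of 0.51 to 1.00 over all 15. KCNJ2, a potassium channel, rose by 0.84 and MEFV, the inflammasome protein pyrin, by 0.76. IL31RA, a cytokine receptor, was not called, at 0.50 with an adjusted p of 0.0346 by edgeR.

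The difference was also seen in cells of equal depth. After every cell was thinned to 3000 UMIs, S100A12 still had a UMI in a median of 83.7% of a dog's CD4-expressing monocytes and 19.5% of its CD4=0 monocytes, against 94.1% and 32.0% before thinning. For LTF the thinned medians were 76.7% and 12.3%, for IL1B 53.5% and 28.3% and for CSF3R 16.7% and 6.95%. In B cells, which should lack both, the thinned medians were 0.826% for S100A12 (0 to 14.5% in single dogs) and 0% for LTF (0 to 1.82%). Thinning left out 2 of the CD4-expressing and 50 of the CD4=0 monocytes as too shallow.

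Among the genes with the largest rises was CYP4F22. This fatty acid ω-hydroxylase known from skin was 0, 2.61 and 10.2 CPM (lowest, median, highest) in CD4=0 monocytes and 23.4, 53.4 and 123 CPM in CD4-expressing monocytes. The values did not overlap, and the log2 fold change was 3.89 ± 0.32 (SE), with an adjusted p of 3.77e-25 by edgeR. ALOX5, the 5-lipoxygenase that makes leukotrienes, was 1.35, 14.9 and 44.2 CPM against 48.5, 83.4 and 159 CPM, again without overlap. Its log2 fold change was 2.20 ± 0.22 (SE). CYP4F22 had a UMI in 2.91% of the CD4=0 and 23.0% of the CD4-expressing monocytes, so it was seen in a part of them only. At 53.4 CPM and a median total of 8114 UMIs, a cell with no UMI may still carry the transcript.

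Next among the leading genes, DACH1, a transcriptional corepressor, rose by 2.61 on the log2 scale with no overlap between the gates. GALNT17, a glycosyltransferase-like protein, rose by 2.25, and TESPA1, a signaling protein best known from thymocytes, by 2.12. ZNF804B, a zinc-finger protein, rose by 2.10 and was higher in 8 of 10 dogs and lower in 1. VSTM1, an inhibitory receptor of myeloid cells, rose by 2.01, the tetraspanin CD82 by 1.84 and ZFPM2, a cofactor of GATA factors, by 1.81. CCL5, a T-cell and NK-cell chemokine, was also called (log2 fold change 3.31), but it stood at 299.7 CPM in OS dog 9 and at a median of 0 CPM in each gate, and its rise was in 4 of 10 dogs.

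The genes that fell most clearly were lower in every dog. S100A5, a calcium-binding protein of the same gene family as S100A12, was 1329.7, 1869 and 2175 CPM (lowest, median, highest) in CD4=0 monocytes and 149, 494 and 862 CPM in CD4-expressing monocytes. There was no overlap, and the log2 fold change was -1.98 ± 0.09 (SE), with an adjusted p of 5.73e-65 by edgeR. S100A12 and S100A5 thus moved in opposite directions, and thinning to 3000 UMIs left S100A5 with a UMI in a median of 35.7% of the CD4-expressing and 89.5% of the CD4=0 monocytes. TCEA3, a transcription elongation factor, was 88.0, 115 and 133 CPM against 18.2, 29.5 and 44.4 CPM, and SPECC1, a cytoskeletal adaptor, fell by 1.83 on the log2 scale, both without overlap.

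Other genes among the largest falls were the following. EPS8, an actin regulator, fell by 1.62, MYO1E, a membrane-bound myosin, by 1.86, FMN1, a formin, by 1.81, and LMNA, the nuclear lamin A, by 1.62 on the log2 scale. ADAM15, a surface protease, fell by 2.35, TSPAN4, a tetraspanin, by 2.08, and CPQ, a carboxypeptidase, by 2.04. CXCL10, an interferon-induced chemokine, fell by 3.30, but it was above 0 in few dogs and was lower in 4 and higher in 0 of 10. SAA1, an acute-phase protein, was called at -1.73 on a median of 0 CPM in CD4-expressing monocytes, and its direction changed with the draw of matched cells (0.75 with another draw).

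**Figure D2:**
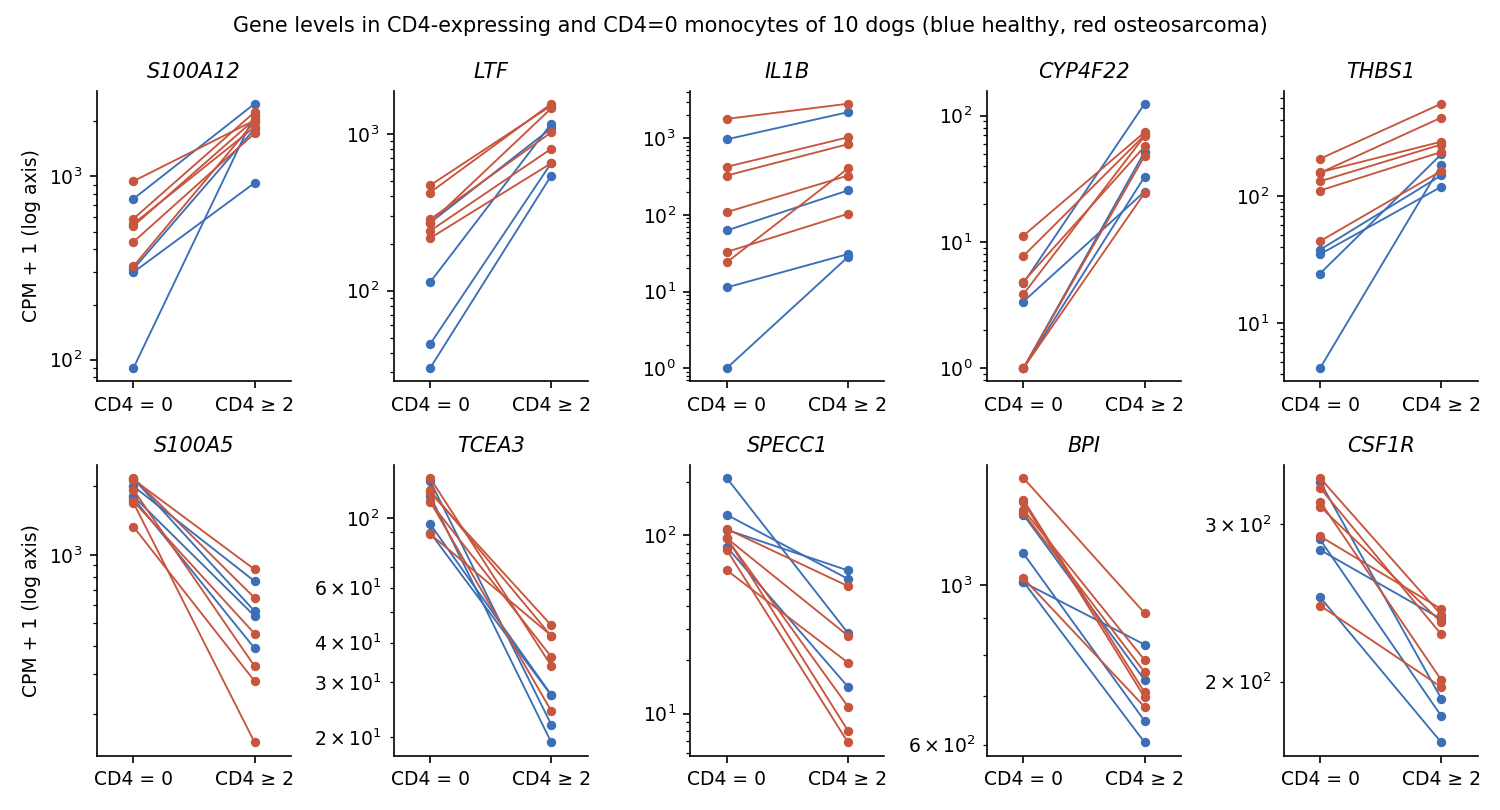
Levels of 10 genes (CPM plus 1, log axis) in CD4=0 and CD4-expressing monocytes of 10 dogs, matched for total UMIs. Each line joins the 2 values of 1 dog, blue for healthy and red for OS, and all lines rise for S100A12, LTF, IL1B, CYP4F22 and THBS1 and fall for S100A5, TCEA3, SPECC1, BPI and CSF1R.

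The levels were also read by the number of CD4 UMIs in the cell. Pooled over dogs and with no matching of total UMIs, S100A12 was 198 CPM in monocytes with 0 CD4 UMIs, 916 with 1, 1446 with 2, 1824 with 3 to 5 and 2167 with 6 or more. LTF went from 85.7 through 580, 837 and 1069 to 1174 CPM over the same classes, and CYP4F22 from 3.36 through 17.6, 26.8 and 71.4 to 118.7 CPM. S100A5 went the other way, from 2022 through 1109, 638 and 474 to 410.5 CPM. Other genes went less evenly over the classes. IL1B was 272, 653, 995, 939 and 1049 CPM over the classes, THBS1 68.4, 164, 315, 301 and 336 CPM, and SPECC1 131, 69.0, 44.4, 26.3 and 30.7 CPM, so that each had a step against its trend above 2 CD4 UMIs. CSF1R was 265 CPM in the lowest and 216 CPM in the highest class. Median totals ran from 11970 UMIs with 0 CD4 UMIs to 8140 with 6 or more, so the classes also differ in depth, and these values are a description without a test.

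**Figure D3:**
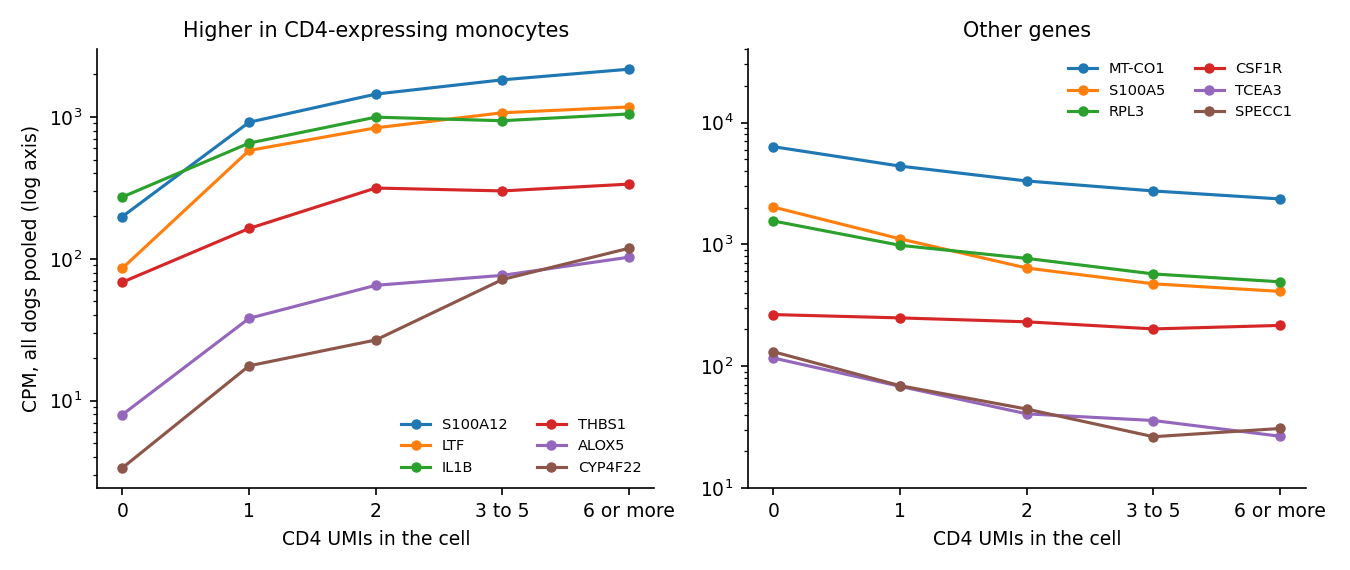
Levels in CPM (log axis, all dogs pooled) of genes that were higher with CD4 (left) and of other genes (right), by the number of CD4 UMIs in the monocyte. S100A12 climbs from 198 to 2167 CPM and S100A5 declines from 2022 to 410.5 CPM across the 5 classes, with the class of 1 CD4 UMI between its neighbours.

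Genes known from granulocytes were among those that rose. Of 10 tested genes of a neutrophil list, 5 were called higher and 0 lower, with a median log2 fold change of 0.71. Besides S100A12 and CSF3R these were FNDC3B, which rose by 0.80 with no overlap between the gates (248 to 489.6 CPM against 509.7 to 885 CPM), ALDH1A2, a retinoic acid-producing enzyme, at 0.75, and SGK1, a kinase, at 0.66. Of 3 tested genes of a PMN-MDSC list, 2 were called higher, LTF and PGLYRP1, the latter from 1 dog. Of 3 tested genes of an eosinophil and basophil list, DACH1 rose by 2.61 and PADI3, a peptidylarginine deiminase, by 0.81. The background over all genes tested was 2.33% called higher and 3.25% lower. Most members of these lists come from the study's short lists, chosen on these dogs. Their counts, and their sums in the next paragraph, are no independent evidence of direction. S100A12, CSF3R and LTF are also members of the M-MDSC list.

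Over all 17 dogs and with no matching of total UMIs, the summed level of the neutrophil list was 4250 to 6430 CPM in CD4=0 monocytes and 6990 to 14357 CPM in CD4-expressing monocytes, and it was higher in the latter in 17 of 17 dogs. The PMN-MDSC list stood at 30.8 to 185 CPM and 601 to 1689 CPM, also higher in 17 of 17 dogs, as was the eosinophil and basophil list at 115 to 337 and 320.1 to 742 CPM. A single gene made up most of each of these last 2 sums. In the 10 matched dogs LTF had a mean of 1048 CPM in CD4-expressing monocytes where the tested PMN-MDSC genes summed to 1091 CPM, and PADI3 had 538 of 572 CPM. The monocyte identity list was higher in 17 of 17 dogs too, from 3283 to 5493 CPM to 4216 to 7561 CPM. In the 10 matched dogs, however, 4 of its 9 tested genes had a fold change above 0, with a median of -0.01 on the log2 scale. The higher sum was therefore not a rise of the list as a whole. The part of these lists in the other differences was not tested.

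The T-cell list was higher in the CD4-expressing monocytes in 3 of 17 dogs, the cytotoxic list in 5, the platelet list in 11 and the dendritic list in 0. The B-cell list holds CD79A and BANK1, frequent in both gates, and the erythroid sum had a median of 0 CPM in both gates, so neither is read here. Of the tested T-cell genes CD2 was called lower at -1.66 on the log2 scale (1 of 6), of the B-cell genes CD79A at -0.85 (1 of 6), and of the dendritic genes CD1C and BATF3 at -1.96 and -0.82 (2 of 6). With 1 dog left out, CD2 and BATF3 each lost the call in 6 of 10 cases and CD1C in 3. The cytotoxic list had CCL5 alone called higher (1 of 3). No platelet gene was called (0 of 5, near the background of 2.33% higher and 3.25% lower) and no erythroid gene passed the count filter.

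Of 9 tested genes of the identity list, 0 were called higher and 1 lower, CD163, a haemoglobin scavenger receptor, at -0.68 on the log2 scale, and the list's median was -0.01. The background over all genes was 2.33% called higher and 3.25% lower. The call of CD163 was lost in 9 of 15 other settings and with 1 of the 10 dogs left out, here and in the lists below that hold it. CSF1R was 242 to 337 CPM against 170.0 to 240.0 CPM, without overlap and lower in 10 of 10 dogs, but its change of -0.48 did not reach the size needed for a call. VCAN, at 0.37, was higher in 10 of 10 dogs and also under that size.

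By the human scheme, 3 of 9 classical monocyte genes were called higher (S100A12, THBS1 and CSF3R) and 1 lower (CD163), and 0 of 6 nonclassical genes were called. With 2.33% of all genes called higher and 3.25% lower, 0 of 6 is near the background. THBS1, the matrix protein thrombospondin 1, was 3.44, 76.9 and 197 CPM against 118, 219 and 537 CPM and rose by 1.55 ± 0.13 (SE). S100A8, a subunit of calprotectin, was 1680.3 to 3791 CPM against 2508 to 4369.6 CPM, a log2 fold change of 0.33 that was not called. Of 13 tested matrix and repair genes, THBS1 and SERPINB2 were called higher and HMOX1, the haem-degrading enzyme, lower by 0.72. SERPINB2, a plasminogen activator inhibitor, was called at 1.51 but was higher in only 6 of 10 dogs. With 1 dog left out its value ran from 0.74 to 1.84, and the call was lost in 1 of 10 cases.

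The study's own short lists for its CD4-positive and CD4-negative monocytes, chosen on these dogs, moved in part. Of 10 genes listed for the CD4-positive monocytes, IL1B was called higher and BPI lower, with a median of -0.05. BPI, a bactericidal granule protein that the study lists for both kinds, was 1008 to 1407 CPM in CD4=0 and 603 to 913 CPM in CD4-expressing monocytes, without overlap. Of 9 tested genes listed for the CD4-negative monocytes, MT2A, BPI and RETN were called lower and 0 higher, with a median of -0.33. MT2A, a metallothionein, fell by 1.62 and RETN, the cytokine resistin, by 0.61. In a list of S100 and granule proteins, LTF and S100A12 rose and BPI and RETN fell, so 4 of 8 members were called, evenly in both directions. Beside these counts, 2.33% of all genes were called higher and 3.25% lower.

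Of 17 tested genes of an NF-kB list, 4 were called higher and 1 lower, with a median of 0.16. SOD2, the mitochondrial superoxide dismutase, was 268, 581 and 1597 CPM against 496, 1102 and 2943 CPM and rose by 0.88 in 10 of 10 dogs. TNFAIP3, an inhibitor of NF-kB signaling, rose by 0.83 and was higher in 10 of 10 dogs. PTGS2, the inducible cyclooxygenase, was called at 1.17 but higher in 5 and lower in 3 dogs, and the chemokine CCL3 was called at -0.93 and lower in 6 dogs, but stood at 0.97 when at least 3 CD4 UMIs were asked for. Of 12 immediate early genes, which answer to handling of cells within minutes, 0 were called, with a median of 0.13. With 2.33% of all genes called higher and 3.25% lower, a count of 0 of 12 is near the background and says nothing of handling.

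In the migration and adhesion list 2 of 13 were called higher, 2 lower and 9 not called, with a median near 0. Over all genes tested, 2.33% were called higher and 3.25% lower, which is the background for each list in this paragraph. CCR1, a receptor for inflammatory chemokines, was 10.3, 28.3 and 84.6 CPM against 11.8, 78.2 and 164 CPM and rose by 1.17, and CXCR4, the receptor for bone marrow retention, rose by 1.13, each in 10 of 10 dogs. PECAM1, used in passage through vessel walls, fell by 1.37 and ITGA4, an integrin subunit, by 0.78, each in 10 of 10 dogs. Among 13 pattern recognition genes, MEFV and NOD2, a sensor of bacterial wall fragments, rose by 0.76 and 0.63 (NOD2 lost the call in 7 of 15 other settings), and PYCARD, the inflammasome adaptor, fell by 0.96. Of 5 Fc receptor genes, FCGRT, the neonatal Fc receptor, fell by 1.52.

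Of 8 tested genes of MHC class II presentation, 2 were called lower and 0 higher. The background for each list in this paragraph was 2.33% of all genes called higher and 3.25% lower. HLA-DQB2 was 661, 983 and 1438 CPM against 287, 659.8 and 1005 CPM and fell by 0.67, and DLA-DQA1 fell by 0.71, each lower in 10 of 10 dogs, and the list's median was -0.35. Of 12 tested interferon-stimulated genes outside the 6 used by the rule, OAS1 and OAS2 fell by 0.72 and 0.87. Among 14 transcription factors of myeloid cells, IRF4 fell by 1.14 and BACH2 by 1.58 (0.12 at 3 or more CD4 UMIs, and -0.82 and no longer called without OS dog 9, where it was 769 CPM in CD4=0 monocytes) and none rose, with a median of -0.04. In the glucocorticoid list SGK1 rose and CD163 fell, of 8 tested.

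Of 8 tested partners of CD4 known from T cells, among them the kinases that bind or act beside CD4 and its soluble ligand IL16, 0 were called, with a median of 0.07. IL16 was 76.3 to 196 CPM in CD4=0 and 104.7 to 154 CPM in CD4-expressing monocytes, a log2 fold change of -0.03 ± 0.12 (SE). Of 7 tested regulators of the CD4 gene, 0 were called, with a median of 0.12. With 2.33% of all genes called higher and 3.25% lower, counts of 0 in lists this short are near the background and say nothing particular of these genes. RUNX1, a factor that acts on the CD4 silencer, was 636 to 1473 CPM against 749 to 1501 CPM, with overlap and a log2 fold change of 0.12.

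Of 66 tested ribosomal protein genes, 32 were called lower and 0 higher, and the list's median was -0.58 against -0.01 over all genes tested. Among all genes, 3.25% were called lower and 2.33% higher. RPL3 was 909, 1397 and 1824 CPM against 477, 647 and 739 CPM, without overlap, and fell by 1.14. RPL15, RPL13 and RPL12 fell by 0.97, 0.94 and 0.85. Summed over the tested members, the mean level was 133939 CPM in CD4=0 and 86941 CPM in CD4-expressing monocytes. Of 61 nuclear genes of oxidative phosphorylation, 10 were called lower and 0 higher, with a median of -0.36. They included NDUFV1 of complex I at -0.98 and the ATP synthase subunits ATP5MC1 and ATP5F1A at -0.85 and -0.84.

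The transcripts of the mitochondrial genome were looked at after their fall had been seen, and 11 of 12 tested were called lower, with a median of -0.98. MT-CO3, MT-CO1 and MT-CYB fell by 1.28, 1.20 and 1.28, each in 10 of 10 dogs, and MT-ND6 was not called. Mitochondrial share and the share of ribosomal transcripts are often read as signs of cell state or RNA quality. A fall of ribosomal and MHC class II transcripts is also part of what the study reported for its M-MDSC cluster. The part of these in the other differences was not tested. Of 12 tested genes of glycolysis, 0 were called, with a median of -0.05, and 0 of 3 tested complement genes were called. Both counts are near the background of 2.33% of genes called higher and 3.25% lower.

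**Figure D4:**
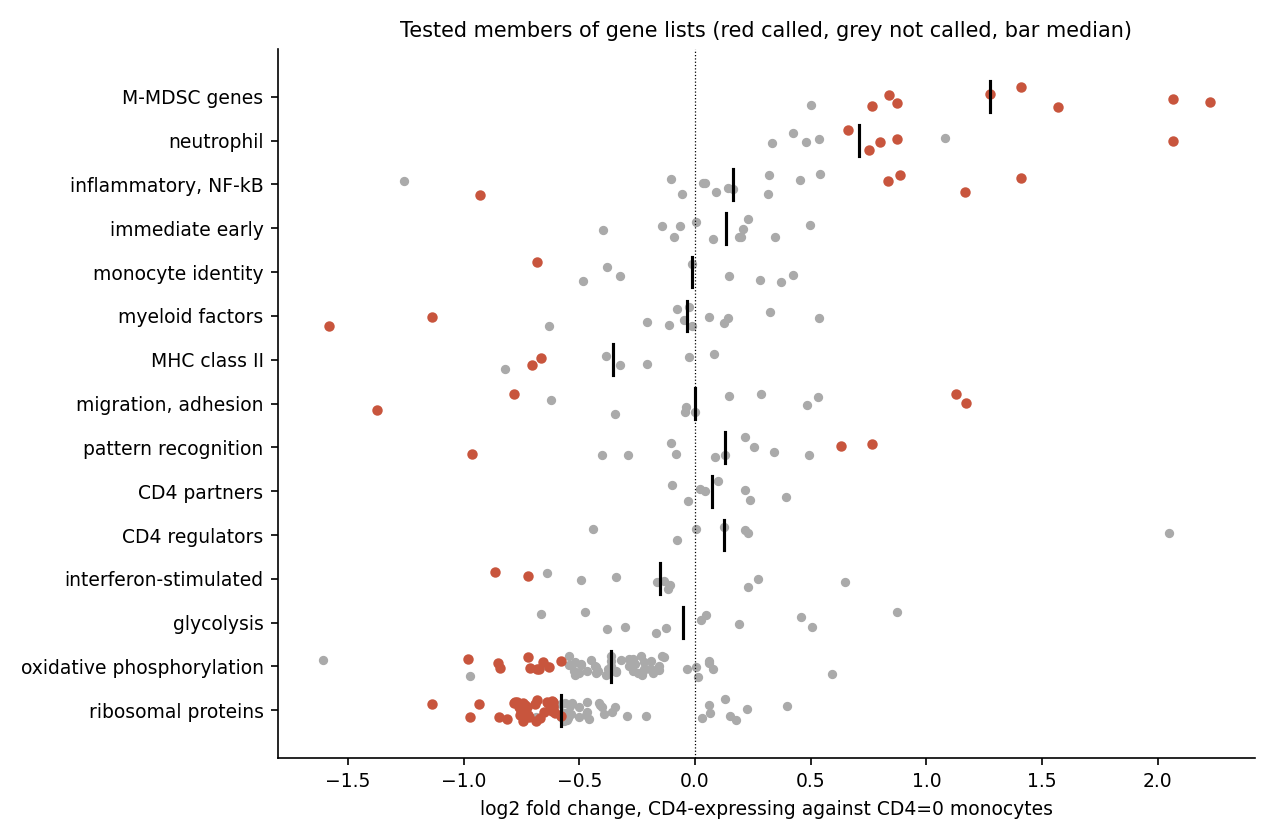
Log2 fold changes of the tested members of 15 gene lists in CD4-expressing against CD4=0 monocytes (10 dogs, total UMIs matched), with called genes in red, others in grey and a bar at each list's median. Among the 15 lists drawn, the M-MDSC genes sit highest with a median of 1.28 and the ribosomal protein genes have the lowest median at -0.58. The partners and regulators of CD4 hold no called gene, a count near the background. Among lists not drawn, the PMN-MDSC (3 tested genes), cytotoxic (3) and dendritic (6) lists had medians of 2.23, 1.96 and -0.93. These rest on the few members that passed the count filter, among them CCL5, high in OS dog 9, and PGLYRP1, called from a single dog. In the whole cytotoxic list the median gene had a UMI in 0.268% of the CD4-expressing and 0.638% of the CD4=0 monocytes.

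The next comparison was with monocytes that also had IL18, the 1 gene of the study's M-MDSC short list in the rule. They met the same limits on DLA-DRA and CAMP. Of the 1105 monocytes with 2 or more CD4 UMIs, pooled over dogs, 545 had a UMI of IL18. IL18 is a gene of the rule, so this split of the cells is no result. The matched comparison rested on 5 dogs (healthy dogs 1 and 3 and OS dogs 5, 7 and 10), with 25 to 49 cells in each sum.

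Of 8397 genes tested between CD4-expressing monocytes without IL18 and with IL18, 5 were called (0.0595%), 2 higher and 3 lower in the cells without IL18, and 621 had an unadjusted p under 0.05. None of the 9 tested M-MDSC genes was called, but all 9 fold changes were below 0, with a median of -0.27. Of 66 ribosomal protein genes in the same comparison 63 were above 0, with a median of 0.24 and 0 called, and the median mitochondrial share was 1.07% without and 0.708% with IL18. The part of these in the differences was not tested. S100A12 was 2089 to 2755 CPM without IL18 and 2043 to 2636 CPM with it, at a log2 fold change of -0.10 (adjusted p = 0.871 by edgeR). LTF was 700 to 1786 CPM and 1034 to 1801 CPM, at -0.19 (adjusted p = 0.662 by edgeR). Both ranges overlapped. STEAP4 was 3.87 to 46.5 CPM without IL18 and 38.4 to 121 CPM with it, at -1.37 ± 0.34 (SE) and an adjusted p of 0.0341 by edgeR, which missed the threshold of 0.01, and was lower in 5 of 5 dogs. CSF3R was also lower in 5 of 5, at -0.76, and CPXM2 was at -0.68. With 5 dogs, a gene that was not called may still differ.

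CYP4F22 was called by edgeR. It was 120, 41.7, 88.9, 62.0 and 105 CPM without IL18 and 264, 139, 296, 196 and 228 CPM with IL18, in healthy dogs 1 and 3 and OS dogs 5, 7 and 10. The values with IL18 lay above all those without it, and the log2 fold change was -1.46 (adjusted p = 1.28e-06 by edgeR). F13A1, a coagulation factor chain made by monocytes, was 656, 500, 172, 507 and 81.5 CPM without IL18 and 376, 347, 147, 177 and 28.5 CPM with it in the same dogs, higher without IL18 in each. The other gene called higher was ENSCAFG00000031869, for which the files give no symbol, at 0.69. PRDM1, a transcriptional repressor, was lower without IL18 at -1.75 and SLC9A9, an endosomal proton exchanger, at -1.48. Except for CYP4F22, each of these calls was lost when any 1 dog was left out. With the dog not in the model no gene was called, and CYP4F22 had an adjusted p of 0.380 by edgeR. DESeq2 gave none of the 5 an adjusted p under its own filter, and without that filter it called CYP4F22 alone.

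Levels in CD4-expressing monocytes were then compared between 6 dogs with OS and 4 healthy dogs, using all of their CD4-expressing cells (28 to 93 in a dog). Of 8924 genes tested by edgeR, 0 were called (0%), while 431 had an unadjusted p under 0.05. DESeq2 also called 0, with 288 under an unadjusted p of 0.05. The smallest adjusted p by edgeR was 0.547. With the age of the dog as a covariate 0 were called as well, with 434 at an unadjusted p under 0.05. The ages of the dog groups were not matched. Healthy and OS values did not overlap in 87 of the 8924 genes (0.975%). With 4 and 6 dogs and few cells in each, differences may have been missed. Which size of difference could be detected was not tested.

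The genes with the smallest p are given by value, and none of them was called. They were picked by p from 8924 genes, here and in the next paragraph. A lack of overlap in them is therefore no added evidence of a difference. PLA1A, a phospholipase, was 22.4, 33.8, 33.2 and 27.9 CPM in healthy dogs 1, 3, 4 and 6 and 49.9 to 122 CPM in dogs with OS. The groups did not overlap, at a log2 fold change of 1.52 ± 0.33 (SE). MAP3K8, a kinase of inflammatory signaling, was 7.48 to 19.0 CPM in healthy dogs and 25.03 to 91.3 CPM in dogs with OS, and CLEC4D, a lectin receptor of myeloid cells, 15.0 to 19.0 and 26.2 to 117 CPM, each without overlap. SLC8A1, a sodium and calcium exchanger, was 217 to 258 CPM in healthy dogs and 269 to 512 CPM in dogs with OS. PHACTR4 (log2 0.91) did not overlap between the groups, and CD55 (log2 0.90), a brake on complement, did.

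In the other direction, NRIP1, a nuclear receptor corepressor, was 15.5 to 56.1 CPM in healthy dogs and 0 to 10.8 CPM in dogs with OS, and LPIN2, a lipid phosphatase, 61.9 to 104 and 25.03 to 55.9 CPM, both without overlap. The metallothionein MT2A was 1065 CPM in healthy dog 6, 13.5 to 191 CPM in the other healthy dogs and 0 to 94.6 CPM in dogs with OS. MT1E, its relative, was 254 CPM in healthy dog 6 and at most 14.2 CPM elsewhere. REEP6 was 475 CPM in healthy dog 1 and 33.4 to 77.4 CPM in all other dogs, and 1 dog thus set much of each of these 3 differences. With healthy dog 6 left out, MT2A went from -3.76 to -2.02 and MT1E from -3.96 to -1.11 on the log2 scale, and REEP6 went from -1.79 to -0.60 with healthy dog 1 left out. NMNAT3 was lower in dogs with OS, at -1.88 on the log2 scale.

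The leading genes of the signature did not pass the test between the dog groups. S100A12 was 957 to 2571 CPM in the CD4-expressing monocytes of healthy dogs and 1756 to 2363 CPM in dogs with OS, at a log2 fold change of 0.12 ± 0.21 (SE) and an adjusted p of 0.990 by edgeR. LTF was 563 to 1232 CPM and 665 to 1603 CPM, at 0.43 ± 0.27 (SE) and an adjusted p of 0.933 by edgeR. No member of the gene lists was called in this comparison.

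Last, the difference between CD4-expressing and CD4=0 monocytes was itself compared between the dog groups, in 1 model over both gates of the same 10 dogs. Of 9817 genes tested, 5 were called (0.0509%), and all 5 had a smaller or more negative difference in dogs with OS. LTF was 44.5, 270.2, 112 and 30.9 CPM in CD4=0 monocytes of healthy dogs 1, 3, 4 and 6 and 215 to 469 CPM in dogs with OS. In CD4-expressing monocytes it was 543 to 1165 CPM and 652 to 1563 CPM. Of the 4 healthy dogs, 3 lay below all dogs with OS in CD4=0 monocytes, while the groups overlapped in CD4-expressing monocytes, with an interaction of -1.07 on the log2 scale (adjusted p = 0.00102 by edgeR).

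THBS1 had the same form. It was 3.44 to 37.1 CPM in CD4=0 monocytes of healthy dogs and 43.5 to 197 CPM in dogs with OS, without overlap, and 118 to 214 and 158 to 537 CPM in CD4-expressing monocytes, with an interaction of -1.64 (adjusted p = 0.00102 by edgeR). LTF and THBS1 were picked from 9817 genes by a test on these same values. A separation of the dog groups in them is therefore no added evidence of a difference. IGKC, an immunoglobulin light chain made by B-lineage cells, was called on 214 CPM in the CD4=0 monocytes of OS dog 10 and 92.5 CPM in the CD4-expressing monocytes of healthy dog 6. BACH2 was called on 769 CPM in the CD4=0 monocytes of OS dog 9. The fifth was ENSCAFG00000029470, for which the files give no symbol. S100A12 was not called (-0.55, adjusted p = 0.864 by edgeR). DESeq2 and a stricter count filter each called 0 genes in this comparison, and leaving out 1 dog lost the call of LTF in 4 of 10 cases and that of THBS1 in 3.

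**Figure D5:**
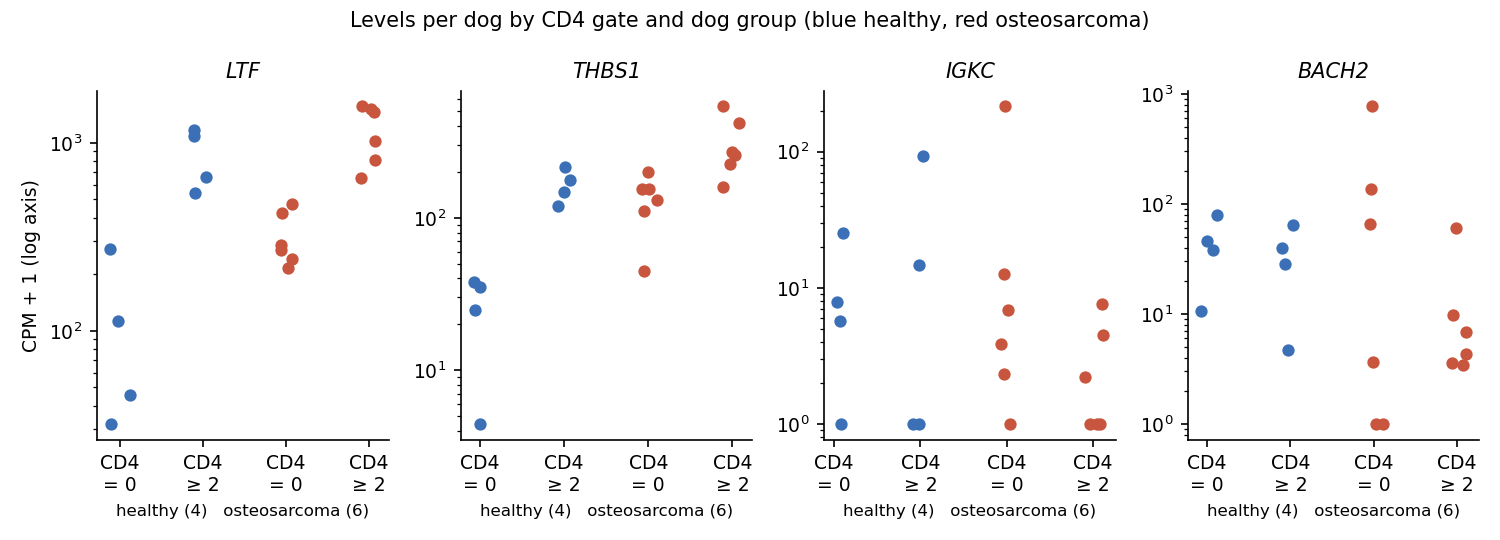
Levels of LTF, THBS1, IGKC and BACH2 (CPM plus 1, log axis) in CD4=0 and CD4-expressing monocytes of 4 healthy dogs (blue) and 6 dogs with OS (red), each point 1 dog. For THBS1 the CD4=0 points of healthy dogs (3.44 to 37.1 CPM) lie below those of dogs with OS (43.5 to 197 CPM), while for IGKC and BACH2 single dogs stand apart. The genes were picked by a test on these same values, so the separation is no added evidence of a difference.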

How the data were processed

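Blood leukocytes of 17 dogs were profiled with 10x Genomics 3′ chemistry. Per the labels, the authors aligned reads to CanFam3.1 with Cell Ranger 7.0.0 and deposited 1 matrix of UMI counts per dog. These are whole-number counts without normalization. The authors aligned each sample once with and once without intronic reads. Which run was deposited is not given in the sources used here.

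From the deposited counts, cells were kept and gated as stated in the report. The members, gene lists and tests were chosen with earlier results of these data known. UMI counts were summed per dog and gate, genes with at least 10 counts over the sums were kept (20257 genes were listed), and the 14 genes of the rule were taken out. For the comparisons of gates, cells were drawn within each dog in bins of 0.25 on the log2 scale of total UMIs. Sums were tested with edgeR 4.0.16 (limma 3.58.1, R 4.3.3) with TMM scaling, the dog as a block between gates, and Benjamini-Hochberg adjustment. DESeq2 1.42.0 was an alternative. Shares were compared by Wilcoxon's rank-sum test, exact and two-sided, in Python 3.11.15, which could reach p = 0.000103 at these sizes.

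Genes were named as the 12 called genes with the largest change in each direction and at least 20 CPM on the higher side (between dog groups 6, or the 6 with the smallest p where 0 were called), with up to 4 called members of each list, or up to 4 of the highest mean level where none was called. Not all genes so named are printed, and some are given for context. A few genes are not reported here. Doublets were marked with Scrublet (scanpy 1.11.5) and left out only as an alternative. Healthy and OS dogs share replicate numbers, which came from accession order and were checked on 6 number pairs, with correlations of their deviations from -0.275 to 0.353, so they do not pair dogs. The labels give no batch. Nothing says that a dog was sampled more than once. Intervals and shares of cells cover counting error only. Alternatives were another normalization, count filters, doublets, dogs left out, unmatched totals, another draw, age as a covariate and other CD4 limits, and others, named with the limits, were added after seeing the data.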

Additional observations from a re-analysis of the deposited data

Results flagged for a closer look

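In groups of 4 to 10 dogs, 98 sets of values were looked at for 1 dog standing far from the rest. For normally distributed values chance alone gives this in about 1 in 20 sets. Most sets here held levels of genes that were named for their change or p in these same data. That rate does not hold for them. OS dog 3 had the highest share of CD4-expressing monocytes among monocytes with no IL18 UMI, at 20% where the next dog with OS had 10.2%, and the highest CD4 level among the dogs with OS, at 86.6 CPM where the next of them had 52.8 CPM. Its share was 20 of 100 monocytes (95% interval 12.7 to 29.2%), in the library with the fewest kept cells, 1239. Healthy dog 3 had the highest share among all kept cells of the healthy dogs, at 1.14%.

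In the CD4-expressing monocytes, healthy dog 6 stood apart for MT2A at 1065 CPM, MT1E at 254 CPM and IGKC at 96.0 CPM, and healthy dog 1 for REEP6 at 475 CPM, SLC8A1 at 258 CPM, VSTM1 at 101 CPM and PRDM1 at 59.8 CPM. F13A1 was lowest in healthy dog 4 at 308 CPM, and CCL5 was 2.25 CPM in healthy dog 3 and 0 CPM in the other healthy dogs of the fit. Among dogs with OS, dog 9 stood apart for CCL5 at 259 CPM and GNG11 at 233 CPM, dog 8 for MT2A at 94.6 CPM, CYP4F22 at 22.3 CPM and CPQ at 0 CPM, dog 6 for BACH2 at 60.8 CPM and dog 5 for SAA1 at 27.4 CPM.

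In 5 genes the difference between CD4-expressing and CD4=0 monocytes differed between dogs with OS and healthy dogs by edgeR's interaction test. The log2 interactions were -1.07 for LTF, -1.64 for THBS1, -5.12 for IGKC, -2.26 for BACH2 and -1.13 for ENSCAFG00000029470. LTF was higher with CD4 in 10 of 10 dogs, by a mean of 3.15 on the log2 scale in healthy dogs and 1.84 in dogs with OS.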

How the results depend on the processing

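Between CD4-expressing and CD4=0 monocytes, 229 genes were called higher and 319 lower. DESeq2 called 149 and 198 (146 and 201 without its independent filtering), the fit of the healthy dogs alone 52 and 99, and cells not matched for total UMIs 374 and 870. With no replicate block (the dog not in the model) the counts were 75 and 160. Leaving out each of the 10 dogs gave 207 to 260 higher and 248 to 337 lower. Of the 9 tested M-MDSC genes, between 3 and 8 were called higher over all settings, 3 of them in healthy dogs alone and 3 without the dog in the model. Of the 70 called genes followed over the settings, 57 kept their call when any 1 dog was left out, and the 13 without it in at least 1 case were CCL5 (too few counts to be tested without OS dog 9), SAA1, CCL3, PTGS2, SERPINB2, CD2, CD1C, BATF3, RETN, CD163, OAS1, BACH2 and UQCRFS1. Over the other settings 25 of the 70 kept their call in each that gave them an adjusted p, and the 14 that lost it in at least 40% are named in the report. The direction changed for SAA1 (1.31 without doublets, 0.0392 unmatched, 0.75 with another draw, 1.84 at 3 or more CD4 UMIs and 0.83 without cells holding T, B or plasma cell UMIs) and, at 3 or more CD4 UMIs, for CCL3 (0.97) and BACH2 (0.12). The cause was not tested. Leaving out cells with CD79A, as planned, left no cells to test. DESeq2 without filtering was added after seeing the data. The other 3 alternatives added then (cells with UMIs of other T, B or plasma cell genes left out, and healthy dog 7 left out of fits over dogs with at least 10 cells) kept these counts within 1.5 times.

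Against monocytes with IL18, the 2 higher and 3 lower calls became 0 and 0 with DESeq2 (which gave 7977 of 8397 genes, all 5 called ones among them, no adjusted p), 0 and 1 without its filtering, 0 and 1 with edgeR's own count filter, 6 lower with genes of at least 1 count, 0 and 1 without doublets, 1 and 6 with dogs of at least 10 cells, 11 and 26 unmatched and 5 and 10 with another draw. With no replicate block they were 0 and 0. Leaving out 1 dog gave 0 higher and 1 to 2 lower.

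For the difference of the gates between dog groups, the 5 lower calls became 0 with DESeq2 with or without filtering, 0 with edgeR's own filter and 1 unmatched, and leaving out 1 dog gave 1 to 6 lower and 0 to 2 higher, with 3 without healthy dog 1, healthy dog 4 or OS dog 7, 2 without OS dog 10 and 1 without healthy dog 6.

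In CD4-expressing monocytes of dogs with OS against healthy dogs, 0 genes were called under all settings but that with genes of at least 1 count (1 higher, 2 lower). A replicate block on the shared numbers called 0 genes, with 361 at an unadjusted p under 0.05, and turned REEP6 to 0.13. MT2A turned to 0.66 at 3 or more CD4 UMIs. S100A12, near 0, turned to -0.00193 at 1 or more and -0.27 at 3 or more, and ran from -0.12 (without healthy dog 6) to 0.28 with 1 dog left out. The share among monocytes was higher in dogs with OS by 0.0954 percentage points after thinning to 3000 UMIs (exact p = 0.669) and no test of the 3 shares and levels passed 0.05 under any setting. Pairing by number gave p = 0.219, 0.578 and 0.156 by an exact signed-rank test.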
